A study of Mus musculus with 8 samples.

Results

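Toll-like, NOD-like and C-type lectin receptors were followed in the lungs of mice that lack all nitric oxide synthases. The set holds every row of the deposited table whose symbol is Tlr, Nod or Clec followed by a digit, or starts with Nlr, apart from a pair of rows that are not analysed here. These rules gave 36 of 15728 genes, of which 10 are Tlr genes, 8 are Nlr or Nod genes and 18 are Clec genes. The study examined the part of nitric oxide and its synthase isoforms in pulmonary emphysema. It used unexposed lung from 4 n/i/eNOSs-/- mice, which carry deletions of the neuronal, inducible and endothelial synthases, and from 4 wild type mice. Both groups are labelled C57BL/6J background and were 4 weeks old, and neither carried another labelled allele or agent. No restriction of the deletions to a cell type is labelled. Lung RNA was measured by CAGE (cap analysis of gene expression). This captures capped 5′ ends and counts 1 tag per transcript whatever its length, so levels in counts per 1000000 reads (CPM) can be set side by side between genes. The replicates are described as separate samples of a genotype, and p-values measure the spread between them.

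These receptors are the germline-encoded sensors of the innate immune system. Toll-like receptors (TLRs) sit at the cell surface or in endosomes, bind microbial lipids, proteins or nucleic acids, and signal through the adaptors MyD88 and TRIF to NF-κB and interferon regulatory factors. NOD-like receptors are cytosolic: some, such as NOD1 and NOD2, signal through the kinase RIPK2, and others nucleate inflammasomes. C-type lectin receptors carry a lectin-like fold, and the myeloid ones recognise fungal or mycobacterial glycans and signal through the kinase Syk or through inhibitory phosphatases. In the lung they are carried mainly by macrophages, dendritic cells and neutrophils, while epithelium, endothelium and platelets carry particular members.

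Library totals were 13014134 to 15096188 reads in knockout lungs and 15598154 to 18593913 reads in wild type lungs, so all knockout libraries were the shallower ones. At these depths 3 reads equal 0.161 to 0.231 CPM. The targeted Nos3 was at 5.56, 8.32, 8.83 and 6.76 CPM in the knockout libraries and at 18.2, 22.8, 19.8 and 18.6 CPM in those of wild type mice, lower in knockout as labelled. Nos1 and Nos2 were not analysed here. Pulmonary epithelial markers were abundant in all libraries (summed level 123883 to 150353 CPM in knockout and 156116 to 171823 CPM in wild type lungs). Scgb1a1 and Sftpc made up most of that sum. Sftpc was lower in knockout lungs, at 40739 ± 4973 CPM against 75406 ± 7581 CPM in wild type lungs (SD, n = 4 each). Y-linked genes were read in all 8 libraries, with a summed level of 63.4 to 66.3 CPM in knockout and 70.1 to 74.0 CPM in wild type lungs, and Tlr7, Tlr8 and Tlr13 are X-linked. All 14 circadian clock genes tested differed between the genotypes (4 higher and 10 lower in knockout lungs), and the labels give no time of collection. The part of depth and of the clock in the results below was not tested.

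CAGE reads mark where transcription starts, so the sequence before the start is shown for the 4 receptor genes that were called higher under every processing alternative in which they were tested (Tlr2, Tlr8, Nod1 and Clec16a) and for Clec1b, which had the lowest adjusted p among the genes called lower. Each line gives the 250 bases before the RefSeq start, 5′ to 3′ on the gene's strand, from the GRCm38.p6 build. Capitals mark matches to the motifs searched.
Tlr2: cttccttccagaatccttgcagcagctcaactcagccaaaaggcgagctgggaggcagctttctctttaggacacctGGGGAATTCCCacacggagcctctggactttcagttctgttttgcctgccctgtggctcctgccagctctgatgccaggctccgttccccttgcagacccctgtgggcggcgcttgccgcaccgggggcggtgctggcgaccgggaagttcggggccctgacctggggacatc
Tlr8: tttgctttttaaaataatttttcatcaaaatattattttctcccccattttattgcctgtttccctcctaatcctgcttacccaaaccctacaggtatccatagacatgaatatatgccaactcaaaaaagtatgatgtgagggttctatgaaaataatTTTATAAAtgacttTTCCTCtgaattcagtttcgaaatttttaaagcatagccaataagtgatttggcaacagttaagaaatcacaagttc
Nod1: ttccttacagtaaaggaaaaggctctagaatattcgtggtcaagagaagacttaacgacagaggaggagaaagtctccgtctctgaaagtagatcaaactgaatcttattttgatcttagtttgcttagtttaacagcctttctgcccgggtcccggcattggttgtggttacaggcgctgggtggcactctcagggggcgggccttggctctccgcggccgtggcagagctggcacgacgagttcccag
Clec16a: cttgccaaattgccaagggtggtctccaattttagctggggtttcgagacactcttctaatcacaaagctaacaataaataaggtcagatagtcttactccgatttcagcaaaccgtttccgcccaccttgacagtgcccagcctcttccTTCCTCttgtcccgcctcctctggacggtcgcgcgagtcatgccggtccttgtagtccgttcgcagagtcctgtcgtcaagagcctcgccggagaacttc
Clec1b: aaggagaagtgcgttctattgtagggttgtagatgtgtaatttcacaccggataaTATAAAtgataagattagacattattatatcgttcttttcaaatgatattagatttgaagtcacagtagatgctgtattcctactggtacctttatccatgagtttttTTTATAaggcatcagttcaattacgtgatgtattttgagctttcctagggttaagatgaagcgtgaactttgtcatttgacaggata
The Tlr2 window is chr3:83841609-83841858 on the minus strand, the Tlr8 window is chrX:167264330-167264579 on the minus strand and the Nod1 window is chr6:54972613-54972862 on the minus strand, the farther upstream of the 2 that RefSeq lists. The Clec16a window is chr16:10545089-10545338 on the plus strand and the Clec1b window is chr6:129397047-129397296 on the plus strand.

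The search covered both strands for the κB consensus (the NF-κB binding motif), the core GAGGAA bound by the myeloid factor PU.1, the interferon-stimulated response element, the E-box CACGTG and the TATA box TATAAA. The Tlr2 window holds overlapping κB matches that begin 173 and 172 bases before the start, the second of which is palindromic. In the Tlr8 window a TATA match lies 89 bases before the start and overlaps another on the opposite strand at 91 bases. A PU.1 core lies 77 bases before the start, also on the opposite strand. Clec16a has a PU.1 core on the opposite strand 100 bases before the start. Clec1b has TATA matches at 195 bases and, on the opposite strand, at 87 bases, and the Nod1 window holds none of these motifs. RefSeq gave 36 windows for 30 of the 36 genes, and Clec1a, Clec4n, Tlr7, Tlr4, Clec10a and Nlrp10 were not matched. The PU.1 core was in 16 of the 36 windows (44.4%), against 23.3% of all 32851 windows. The κB consensus was in 2 of them (5.56%, against 7.25%), the TATA box in 6 (16.7%, against 12.4%), the interferon element in 2 (5.56%, against 2.98%) and the E-box in 1 (2.78%, against 6.02%). These matches describe letters and not binding, motifs were not masked for each other, and a single gene can have more than 1 window.

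Of the 36 receptor genes, 29 had a mean of at least 1 CPM over the 8 libraries (10 Tlr, 3 Nlr or Nod and 16 Clec genes), and the same 29 passed the filter on low values and entered the test. Clec2d was the most abundant at 612 ± 25.1 CPM in knockout and 594 ± 49.8 CPM in wild type lungs (SD, n = 4 each), followed by Clec14a and Clec1a. Only 8 of the 36 lay above the median level of all listed genes, 15.7 CPM, and these were 6 Clec genes, Tlr4 and Tlr2. Summed over each class, the Tlr genes came to 70.3 ± 4.20 CPM in knockout and 60.9 ± 5.03 CPM in wild type lungs (SD, n = 4 each). The Nlr and Nod genes came to 31.3 ± 3.57 CPM in knockout and 25.8 ± 2.12 CPM in wild type lungs. The Clec genes came to 1182 ± 56.1 CPM in knockout and 1137 ± 65.5 CPM in wild type lungs. Since these are whole lungs, fewer cells of a type and less RNA per cell cannot be told apart.

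**Figure D1:**
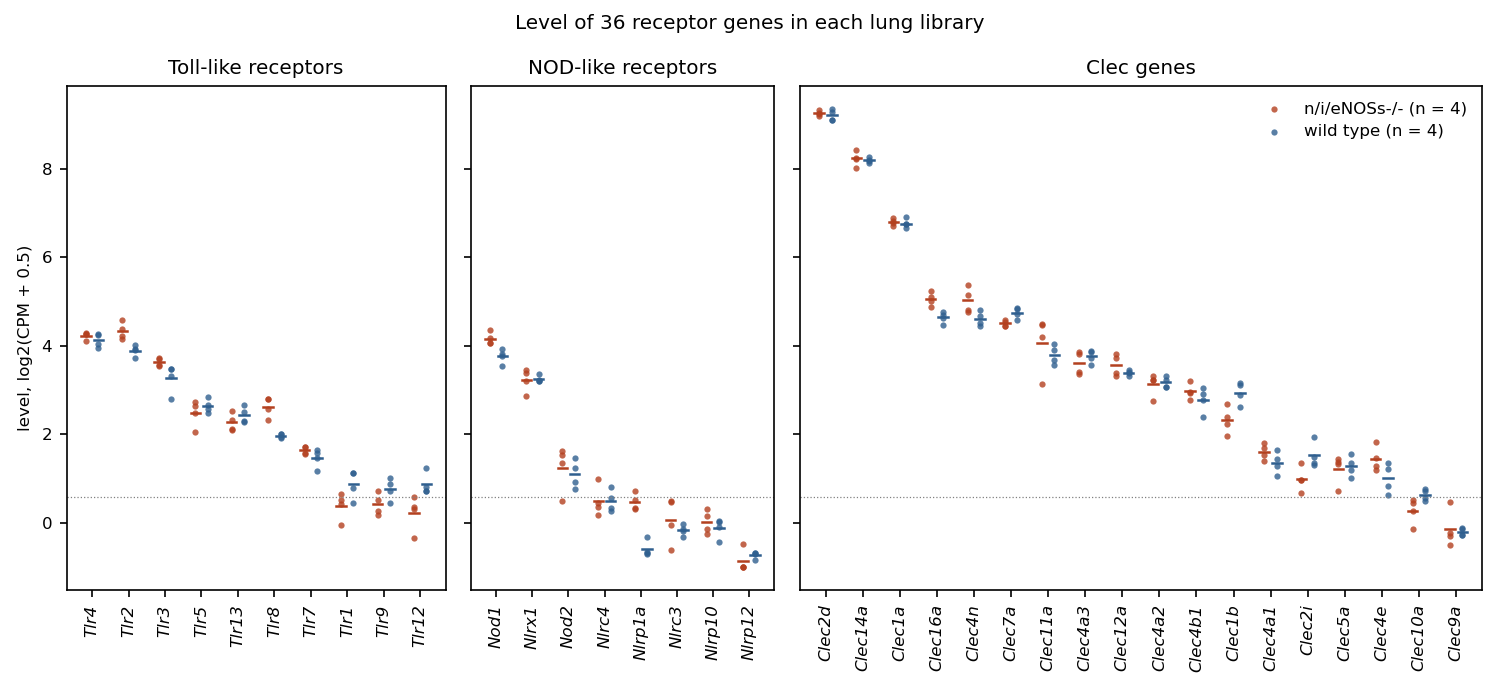
Level of each of the 36 receptor genes in CPM (log axis), with 1 point per library, knockout and wild type shown side by side and bars at the group means. The dotted line marks 1 CPM, the mean level above which fold changes are given, and Clec2d, Clec14a and Clec1a stand above the rest.

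Between genotypes, 5 of the 29 tested receptor genes were higher in knockout lungs (Tlr2, Tlr8, Nod1, Clec16a and Clec4n) and 3 were lower (Clec1b, Clec7a and Tlr12), at an adjusted p under 0.05 in limma. This is 27.6% of those tested, against 30.9% of all 14065 genes tested (16.6% higher and 14.3% lower), so the receptors were called about as often as other genes. Their median log2 fold change was 0.05 against 0.01 over all genes tested, and their median absolute change was 0.24 against 0.19. Among the Tlr genes 2 of 10 were higher and 1 lower, among the Nlr and Nod genes 1 of 3 was higher, and among the Clec genes 2 of 16 were higher and 2 lower. The libraries of the genotypes did not overlap for 6 of the 29 tested, namely Tlr2, Tlr3, Tlr8, Nod1 and Clec16a on the higher side and Tlr12 on the lower, where 31.2% of all genes tested had no overlap (16.8% higher and 14.3% lower). Tlr12 passed the filter on low values through the wild type lungs alone, which limits what its lower call and its lack of overlap can show. Under quantile normalization the calls were 6 higher and 2 lower. The lower calls were the less stable ones: 1 was left without knockout replicate 3, knockout replicate 4 or wild type replicate 3, and 0 without wild type replicate 1 or 2, where limma still had 4 and 3 lower at an unadjusted p under 0.05. With all 8 libraries edgeR and DESeq2 each had 4 lower, the fourth being Clec2i.

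**Figure D2:**
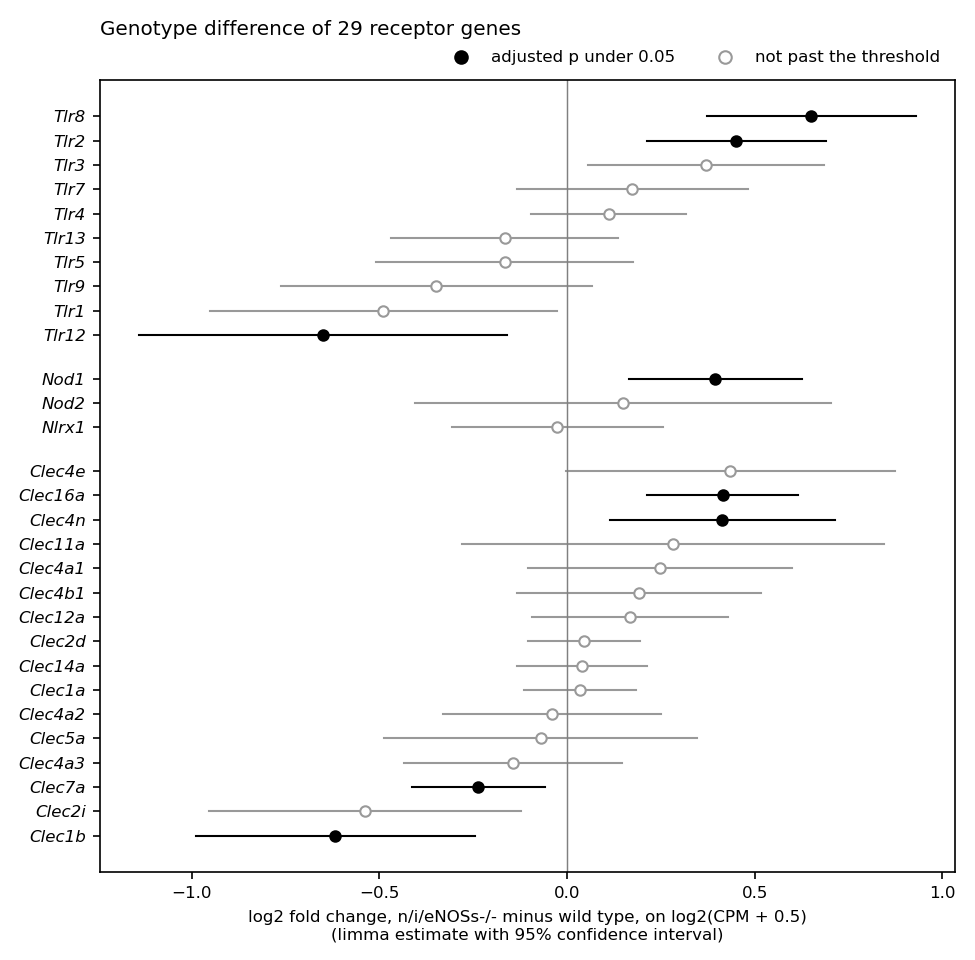
Log2 fold change (knockout over wild type, on log2(CPM + 0.5)) of the 29 tested receptor genes with 95% confidence intervals from limma, grouped by class. The 5 higher and 3 lower genes at an adjusted p under 0.05 are marked apart from the 21 others.

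At the cell surface, TLR2 recognises bacterial lipoproteins as a heterodimer with TLR1 or TLR6. Tlr2, on chromosome 3, was at 23.6, 20.4, 17.3 and 18.2 CPM in knockout libraries 1 to 4, and at 15.8, 14.4, 12.6 and 14.7 CPM in wild type libraries 1 to 4. Every knockout library was above every wild type library. The log2 fold change was 0.45 (SE 0.108, adjusted p = 0.00959, n = 4 each), which is a 1.37-fold higher level with a 95% interval of 1.16 to 1.61, and the adjusted p stayed between 0.00282 and 0.0305 over the alternatives. Its partner gene Tlr1 was at 1.06, 0.47, 0.83 and 0.92 CPM in the knockout libraries and at 1.67, 1.67, 0.87 and 1.22 CPM in wild type libraries, overlapping ranges (log2 fold change -0.49, adjusted p = 0.10). The 5′ sequence of Tlr1 has near copies elsewhere in the annotation, so its reads are uncertain. The log2 difference between Tlr2 and Tlr1 within a library averaged 3.96 ± 0.33 in knockout and 3.02 ± 0.22 in wild type lungs (SD, n = 4 each), and the ranges did not overlap. A two-sided exact permutation test gave p = 0.0286, the smallest that 70 arrangements allow, and 0.0857 after adjustment over 3 such pairs, which were chosen after their values were seen. With a pseudocount of 1 the difference between genotypes was smaller (0.807, against 0.940) and the adjusted p was 0.0429. Since p was already the smallest possible, that lower adjusted p came through the adjustment over the pairs. The adjusted p was 0.0857 with a pseudocount of 0.1 and 0.0857 to 0.171 with single libraries left out. With a library left out, too few arrangements remain for an adjusted p under 0.05, so these runs cannot show whether the difference holds.

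Tlr4, whose product is the lipopolysaccharide receptor, had the highest mean level of the Tlr genes over the 8 libraries. It was at 18.6, 18.8, 19.1 and 16.7 CPM in knockout libraries and at 18.7, 15.8, 18.5 and 14.8 CPM in wild type libraries. The ranges overlapped (log2 fold change 0.11, 95% interval -0.10 to 0.32, adjusted p = 0.399). Tlr5, the flagellin receptor, averaged 5.14 ± 1.12 CPM in knockout and 5.76 ± 0.70 CPM in wild type lungs (adjusted p = 0.444).

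The endosomal TLRs bind nucleic acids. Tlr8 lies beside Tlr7 on the X chromosome, and in mice its product is known for restraining Tlr7 signalling. Tlr8 was at 4.50, 5.41, 6.42 and 6.45 CPM in knockout libraries 1 to 4, and at 3.29, 3.50, 3.52 and 3.33 CPM in wild type libraries 1 to 4. The groups were well apart, and the log2 fold change of 0.65 (SE 0.127, adjusted p = 0.00332, n = 4 each) was the largest rise among the called receptors. The adjusted p was 0.00098 to 0.0124 over the 18 alternatives in which it was tested. Its wild type values lay closer together (3.43% of their mean) than counting reads alone gives at this level. Tlr7, the receptor for single-stranded RNA, averaged 2.61 ± 0.18 CPM in knockout and 2.28 ± 0.39 CPM in wild type lungs (log2 fold change 0.17, 95% interval -0.13 to 0.48, adjusted p = 0.372). The log2 difference between Tlr8 and Tlr7 was 0.98 ± 0.21 in knockout and 0.51 ± 0.21 in wild type lungs, with overlap at the edges (exact permutation p = 0.0571, 0.0857 adjusted over the 3 pairs). The adjusted p was 0.0429 with a pseudocount of 1, 0.0857 with 0.1 and 0.0857 to 0.171 with single libraries left out, where too few arrangements remain for a value under 0.05. Tlr13, also X-linked and a sensor of bacterial ribosomal RNA in mice, averaged 4.34 ± 0.68 CPM in knockout and 4.92 ± 0.73 CPM in wild type lungs (adjusted p = 0.385).

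Tlr3, whose product senses double-stranded RNA and is also carried by epithelium, was at 11.3, 12.8, 12.6 and 11.2 CPM in knockout libraries and at 9.39, 10.7, 10.6 and 6.48 CPM in wild type libraries. The groups did not overlap, but the log2 fold change of 0.37 (SE 0.143) did not pass the test (adjusted p = 0.0706). It passed under quantile normalization (adjusted p = 0.036). Without wild type replicate 4, the lowest library, the log2 fold change was 0.22 (adjusted p = 0.132). Tlr9, the receptor for unmethylated CpG DNA, averaged 0.85 ± 0.24 CPM in knockout and 1.21 ± 0.27 CPM in wild type lungs (log2 fold change -0.35, adjusted p = 0.184).

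Tlr12, whose product recognises the profilin of parasites such as Toxoplasma in mice, was at 0.99, 0.74, 0.28 and 0.77 CPM in the knockout libraries and at 1.26, 1.13, 1.85 and 1.15 CPM in wild type libraries. The groups did not overlap, and the log2 fold change was -0.65 (SE 0.223, adjusted p = 0.0460). These values rest on 4 to 32 reads per library, and the gene reached the filter of 1 CPM in 4 libraries through the wild type lungs alone. The call was lost without any single library apart from knockout replicate 1, and the adjusted p was 0.0262 to 0.126 over the alternatives.

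**Figure D3:**
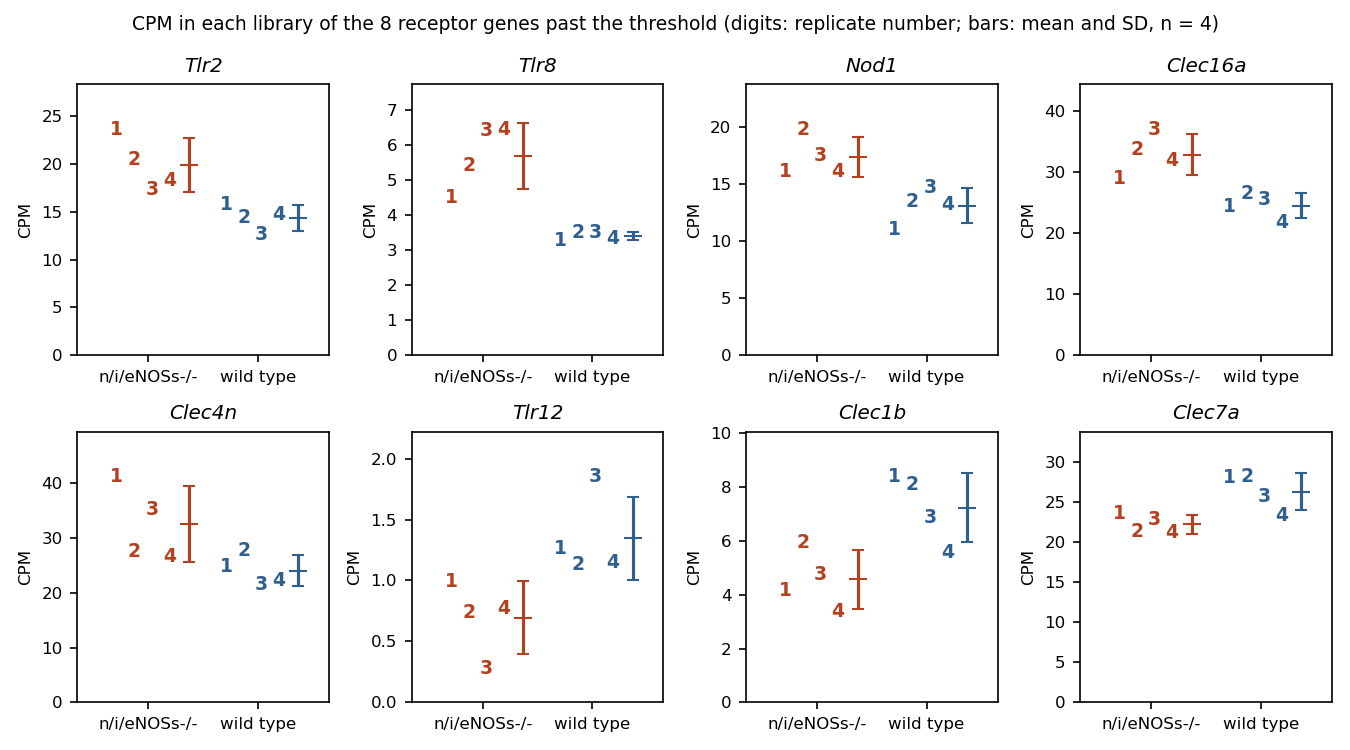
Level in CPM of the 8 called receptor genes in each library, knockout left of wild type. Digits are replicate numbers and bars the mean and SD of 4 libraries. Tlr2, Tlr8, Nod1, Clec16a and Tlr12 show no overlap between the genotypes, while Clec4n, Clec7a and Clec1b do.

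Among the NOD-like receptors, Nod1 was the most abundant and the only tested one that changed. NOD1 binds a diaminopimelic acid peptide of mainly Gram-negative peptidoglycan and is carried by epithelium as well as myeloid cells. Nod1 was at 16.1, 19.8, 17.5 and 16.1 CPM in knockout libraries 1 to 4, and at 11.1, 13.5, 14.7 and 13.2 CPM in wild type libraries 1 to 4. Every knockout library was above every wild type library (log2 fold change 0.40, SE 0.104, adjusted p = 0.0149, n = 4 each), and the adjusted p was 0.0047 to 0.0423 over the alternatives. Nod2, the muramyl dipeptide receptor, was at 2.58, 2.03, 0.90 and 2.38 CPM in the knockout libraries and at 1.2, 1.4, 1.85 and 2.24 CPM in wild type libraries, which overlapped (log2 fold change 0.15, 95% interval -0.41 to 0.70, adjusted p = 0.687). Nod2 shares 5′ sequence with other annotated genes, so its reads are uncertain. The log2 difference between Nod1 and Nod2 was 2.91 ± 0.57 in knockout and 2.67 ± 0.24 in wild type lungs (exact permutation p = 0.571). Nlrx1, a NOD-like protein of mitochondria, averaged 8.94 ± 1.64 CPM in knockout and 9.0 ± 0.52 CPM in wild type lungs (log2 fold change -0.03, 95% interval -0.31 to 0.25).

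The 5 other Nlr genes had means under 1 CPM and entered no test. Nlrp1a, which encodes a sensor of the NLRP1 inflammasome family, was at 1.13, 0.74, 0.76 and 0.92 CPM in knockout libraries and at 0.30, 0.11, 0.12 and 0.13 CPM in wild type libraries. These are 51 reads in knockout and 11 reads in wild type lungs, with no overlap between the libraries, and the gene was called higher where no filter was used. Nlrc4, the inflammasome partner of the NAIP sensors, was at 0.62 to 1.49 CPM in knockout and 0.70 to 1.26 CPM in wild type lungs. Nlrc3, known as a restraint on innate signalling, was at 0.15 to 0.90 CPM in knockout and 0.30 to 0.48 CPM in wild type lungs, and Nlrp10 was at 0.33 to 0.74 CPM in knockout and 0.24 to 0.52 CPM in wild type lungs. Nlrp12 had 3 reads over all knockout libraries, with 0 in replicates 1, 2 and 4, and 7 reads over all wild type libraries. Apart from Nlrp1a, the genotypes overlapped for each of these.

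Of the 5 activating myeloid C-type lectin receptors, Clec4n was higher and Clec7a lower, and the other 3 did not pass the test. Clec4n encodes Dectin-2, a receptor for fungal mannans that signals through the Fc receptor γ chain. It was at 41.1, 27.5, 35.1 and 26.6 CPM in knockout libraries 1 to 4, and at 24.8, 27.6, 21.4 and 22.3 CPM in wild type libraries 1 to 4. Knockout replicates 1 and 3 were the highest of all, while replicates 2 and 4 lay below wild type replicate 2. The log2 fold change was 0.41 (SE 0.137, adjusted p = 0.0398), and the call was lost without knockout replicate 1 (0.0825) or 3 (0.101) and without wild type replicate 1 (0.0670), 3 (0.105) or 4 (0.0935).

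Clec7a encodes Dectin-1, the β-glucan receptor. It was at 23.6, 21.4, 22.8 and 21.2 CPM in knockout libraries and at 28.1, 28.2, 25.8 and 23.4 CPM in wild type libraries. Only knockout replicate 1 and wild type replicate 4 crossed, and the log2 fold change of -0.24 (SE 0.081, adjusted p = 0.0459) was the smallest among the called receptors. The call held without knockout replicate 1 or wild type replicate 4, and was lost without any other library (adjusted p of 0.0743 to 0.124) and where no filter on low values was used (0.0501).

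Clec4e, which encodes the mycobacterial glycolipid receptor Mincle, averaged 2.25 ± 0.56 CPM in knockout and 1.55 ± 0.46 CPM in wild type lungs (log2 fold change 0.43, 95% interval -0.00 to 0.87, adjusted p = 0.121). Clec5a, whose product pairs with the adaptor DAP12, averaged 1.85 ± 0.47 CPM in knockout and 1.95 ± 0.40 CPM in wild type lungs (adjusted p = 0.806). Clec4b1, which encodes a dendritic cell activating receptor, averaged 7.37 ± 1.01 CPM in knockout and 6.44 ± 1.27 CPM in wild type lungs (adjusted p = 0.353).

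Of the inhibitory and dendritic cell lectin receptors, Clec12a, Clec4a3, Clec4a2 and Clec4a1 were tested and did not pass, and Clec10a and Clec9a entered no test. Clec12a, an inhibitory receptor for uric acid crystals, was at 13.6, 9.47, 9.87 and 12.6 CPM in knockout libraries and at 10.4, 9.90, 10.1 and 9.49 CPM in wild type libraries (log2 fold change 0.17, adjusted p = 0.306). Knockout replicates 1 and 4 were above, and replicates 2 and 3 beside, the narrow wild type range. The dendritic cell immunoreceptor family, which includes ITIM-bearing members, gave log2 fold changes of -0.15 for Clec4a3 (11.9 ± 2.27 CPM in knockout and 13.1 ± 1.32 CPM in wild type lungs), -0.04 for Clec4a2 (8.35 ± 1.45 and 8.53 ± 0.83 CPM) and 0.25 for Clec4a1 (2.55 ± 0.37 and 2.09 ± 0.45 CPM). Their adjusted p were 0.432, 0.837 and 0.265. Clec10a, a galactose-type lectin of macrophages and dendritic cells, was at 0.41 to 0.92 CPM in knockout and 0.90 to 1.2 CPM in wild type lungs, and its 5′ sequence has a near copy in Mgl2. Clec9a, the receptor for dead cells on cross-presenting dendritic cells, was at 0.20 to 0.88 CPM in knockout and 0.32 to 0.42 CPM in wild type lungs.

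Clec1b encodes CLEC-2, the podoplanin receptor of platelets. It was at 4.17, 5.95, 4.76 and 3.38 CPM in knockout libraries 1 to 4, and at 8.37, 8.07, 6.87 and 5.58 CPM in wild type libraries 1 to 4. Only knockout replicate 2 lay above the lowest wild type library. The log2 fold change was -0.62 (SE 0.170, adjusted p = 0.0178), a level 0.652 times that of wild type with a 95% interval of 0.503 to 0.844, and the call was lost without wild type replicate 1 (0.0545) or 2 (0.0539). Clec1b overlaps Clec9a on the same strand. The 5′ sequence of Clec9a has a near copy in Clec1b, while none was found for the 5′ sequence of Clec1b, and how reads of the overlap were assigned is not given. Of 8 platelet markers 5 were tested and 2 were lower, so 40% were called, against 30.9% of all genes (14.3% lower). The median log2 fold change of the 5 was -0.29. Ppbp was at 3.17 ± 1.2 CPM in knockout and 7.27 ± 0.70 CPM in wild type lungs (adjusted p = 0.00403), and Gp1bb at 2.10 ± 0.70 and 4.12 ± 0.23 CPM (adjusted p = 0.005). Pf4, the most abundant platelet marker, was at 58.0 ± 6.43 CPM in knockout and 54.7 ± 3.76 CPM in wild type lungs (adjusted p = 0.517). Itga2b (log2 fold change -0.02, adjusted p = 0.921) and Gp9 (-0.29, adjusted p = 0.426) were not called either. The summed level of the platelet markers was 56.9 to 79.1 CPM in knockout and 68.6 to 77.9 CPM in wild type lungs, and no marker was at 0 in every library. Their part in the Clec1b difference was not tested. Pdpn, which encodes the ligand podoplanin of alveolar type 1 and lymphatic endothelial cells, was also lower, at 110 ± 13 CPM in knockout and 195 ± 25.7 CPM in wild type lungs (log2 fold change -0.83, adjusted p = 0.000308).

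The most abundant Clec genes are not myeloid sensors, and none of them passed the test. Clec2d, which encodes a ligand of NK cell receptors, was at 605, 647, 608 and 587 CPM in knockout libraries and at 617, 653, 553 and 553 CPM in wild type libraries (log2 fold change 0.05, 95% interval -0.10 to 0.19). Clec14a, an endothelial surface protein, was at 260.0, 344, 300 and 302 CPM in knockout libraries and at 292, 288, 308 and 278 CPM in wild type libraries (log2 fold change 0.04, 95% interval -0.13 to 0.21). Clec1a, a receptor for fungal melanin that endothelium carries, was at 109, 112, 118 and 104 CPM in knockout libraries and at 106, 119, 107 and 100 CPM in wild type libraries (log2 fold change 0.03, 95% interval -0.11 to 0.18). All 3 intervals include no change.

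Clec16a, in contrast to its name, encodes an intracellular protein of endosomes that regulates autophagy and mitophagy. It was at 28.9, 33.7, 36.9 and 31.8 CPM in knockout libraries 1 to 4, and at 24.3, 26.4, 25.4 and 21.7 CPM in wild type libraries 1 to 4. Every knockout library was above every wild type library (log2 fold change 0.41, SE 0.091, adjusted p = 0.00628, n = 4 each), with an adjusted p of 0.000462 to 0.0204 over the alternatives. Clec11a, which encodes a secreted growth factor, was at 8.28, 22.04, 21.6 and 17.8 CPM in knockout libraries and at 11.2, 14.4, 15.9 and 12.2 CPM in wild type libraries. Knockout replicate 1 was the lowest of all 8 and the other knockout libraries were above every wild type library. The log2 fold change was 0.28 (SE 0.257, adjusted p = 0.431), and without knockout replicate 1 it was 0.59 (adjusted p = 0.00675), without knockout replicate 2 it was 0.14 and without knockout replicate 3 it was 0.15. Clec2i, a relative of Clec2d, was at 1.46, 2.03, 1.45 and 1.08 CPM in the knockout libraries and at 1.97, 3.33, 2.31 and 2.05 CPM in wild type libraries (log2 fold change -0.54, SE 0.189, adjusted p = 0.0509). Only knockout replicate 2 reached into the wild type range, the adjusted p without it was 0.0271, and TMM scaling, median-ratio scaling, edgeR and DESeq2 also called the gene lower (0.0353 to 0.0466). Clec2i overlaps BC035044 on the opposite strand, and whether strand was used in counting is not given.

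**Figure D4:**
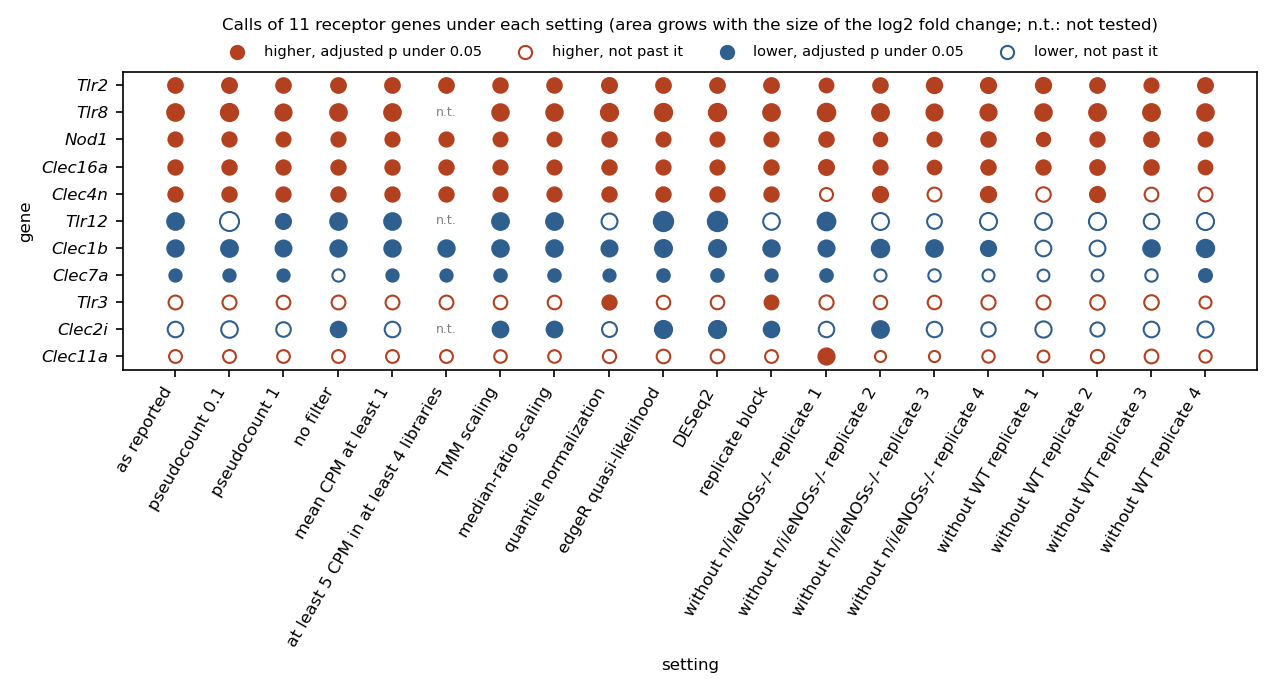
Calls of 11 receptor genes (rows) as reported, under each processing alternative and with each library left out (columns). Colour gives the direction in knockout over wild type, area grows with the size of the log2 fold change, filled points have an adjusted p under 0.05 and n.t. marks a setting in which the gene was not tested. Tlr2, Tlr8, Nod1 and Clec16a are filled wherever they were tested, while Clec4n, Clec7a, Clec1b and Tlr12 are open in part.

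The signalling partners of these receptors were read from lists chosen by function. Set beside the 30.9% of all genes, the share called was 30.8% of TLR coreceptors and chaperones, 20% of TLR adaptors and kinases, 31.2% of NF-κB and interferon regulatory factor genes, 12.5% of NOD pathway genes, 26.7% of other inflammasome genes, 35.7% of genes downstream of C-type lectin receptors, 24% of other lectin-domain genes and 33.3% of cytosolic sensing genes. Most lists were thus at or below the share of all genes. Their median log2 fold changes were -0.01, 0.06, 0.08, 0.13, -0.05, 0.17, -0.04 and -0.02 in the same order, against 0.01 over all genes. Of 13 TLR coreceptors and chaperones tested, 2 were higher and 2 lower in knockout lungs. Cd14, which hands lipopolysaccharide and lipoproteins to TLR4 and TLR2, was at 10.3 ± 1.11 CPM in knockout and 14.9 ± 1.45 CPM in wild type lungs (log2 fold change -0.52, adjusted p = 0.00354). Ly86, which encodes MD-1, was at 8.23 ± 0.46 CPM in knockout and 11.7 ± 1.33 CPM in wild type lungs (adjusted p = 0.00468). Unc93b1, the escort of endosomal TLRs, was at 44.4 ± 1.96 CPM in knockout and 38.5 ± 2.76 CPM in wild type lungs (adjusted p = 0.0468), and Hsp90b1, the TLR chaperone, was at 805 ± 109 and 659 ± 31.9 CPM (adjusted p = 0.0390). Both calls were lost under quantile normalization and without most single libraries, with adjusted p up to 0.133 for Unc93b1 and 0.11 for Hsp90b1, and Unc93b1 was not called in edgeR or DESeq2 either.

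Of 20 TLR adaptors and kinases, 2 were higher and 2 lower. Myd88, the adaptor of all TLRs but TLR3, was higher at 66.6 ± 3.34 CPM in knockout and 50.4 ± 1.23 CPM in wild type lungs (log2 fold change 0.40, adjusted p = 0.000792), as was the ubiquitin ligase gene Peli1 at 92.2 ± 3.08 and 72.2 ± 6.03 CPM (adjusted p = 0.00352). The adaptor genes of the kinase TAK1 were lower: Tab2 at 12.2 ± 1.4 CPM in knockout and 17.2 ± 1.5 CPM in wild type lungs (adjusted p = 0.00477), and Tab3 at 3.12 ± 0.46 and 4.55 ± 0.64 CPM (adjusted p = 0.0221, lost when any of knockout replicates 3 and 4 and wild type replicates 2 and 4 was left out, at 0.0532 to 0.0699).

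Of 16 NF-κB and interferon regulatory factor genes, 3 were higher and 2 lower. The higher ones were Tnip1 (22.6 ± 1.04 CPM in knockout and 14.8 ± 0.93 CPM in wild type lungs, adjusted p = 0.000298) and Tnfaip3 (25.2 ± 4.34 and 16.2 ± 2.29 CPM, adjusted p = 0.00582), whose products act together as brakes on NF-κB, and the NF-κB subunit gene Relb (11.8 ± 1.35 and 8.73 ± 0.46 CPM, adjusted p = 0.0104). Nfkb1, which encodes the p50 precursor, was lower at 45.6 ± 4.71 CPM in knockout and 58.3 ± 3.09 CPM in wild type lungs (adjusted p = 0.00755).

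Of 8 genes of the NOD pathway 1 was higher and 0 were lower, in limma as in edgeR and DESeq2, also at an unadjusted p under 0.05 for the lower side. The higher one was Slc15a3, a transporter of bacterial muropeptides out of endosomes, at 80.8 ± 3.72 CPM in knockout and 53.0 ± 6.93 CPM in wild type lungs (log2 fold change 0.61, adjusted p = 0.000772). Of 15 other inflammasome genes 2 were higher and 2 lower. Casp4, which encodes caspase-11, the intracellular lipopolysaccharide sensor of mice, was lower at 1.44 ± 0.32 CPM in knockout and 3.04 ± 0.24 CPM in wild type lungs (log2 fold change -0.88, adjusted p = 0.00156). Dpp9, which encodes a protease that restrains NLRP1, was higher at 24.7 ± 1.65 and 18.5 ± 1.09 CPM (adjusted p = 0.00296). The close paralogues Naip6 and Naip5, between which reads can be split, had opposite directions: Naip6 was at 2.02 ± 0.56 CPM in knockout and 1.01 ± 0.24 CPM in wild type lungs (adjusted p = 0.0155), and Naip5 at 0.94 ± 0.14 and 1.56 ± 0.15 CPM (adjusted p = 0.0218, lost in DESeq2 and without wild type replicate 1, 3 or 4, at 0.0507 to 0.0624).

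Of 14 genes that act downstream of C-type lectin receptors, 5 were higher and 0 lower in limma. The counts in edgeR and DESeq2 were the same but not all the genes (1, 2 and 1 lower at an unadjusted p under 0.05 in limma, edgeR and DESeq2). The Src family kinase gene Lyn was at 217 ± 12.8 CPM in knockout and 167 ± 8.55 CPM in wild type lungs (log2 fold change 0.37, adjusted p = 0.00144). Bcl10, of the CARD9 complex, was at 68.5 ± 2.73 CPM in knockout and 54.2 ± 3.84 CPM in wild type lungs (adjusted p = 0.00380). Prkcd, the kinase that acts between Syk and CARD9, was at 61.1 ± 6.62 and 49.2 ± 3.22 CPM (adjusted p = 0.0213, lost when knockout replicate 2, knockout replicate 3 or wild type replicate 1 was left out, at 0.0507 to 0.0626). Ptpn11, which encodes the phosphatase SHP-2, was at 139 ± 15.2 and 116 ± 7.55 CPM (adjusted p = 0.0347, lost in 6 of 19 alternatives, up to 0.0951). The fifth in limma, Tyrobp, which encodes DAP12 and was named after its value was seen, had an adjusted p of 0.0394. It lost its call in 11 of 19 alternatives (up to 0.142), among them edgeR (0.0975) and DESeq2 (0.0918).

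Of 25 genes of other proteins with a C-type lectin domain, 2 were higher and 4 lower. Olr1, which encodes a scavenger receptor for oxidised lipoprotein, was higher at 13.5 ± 0.83 CPM in knockout and 9.24 ± 1.23 CPM in wild type lungs (adjusted p = 0.00343). Sftpa1, the surfactant collectin gene, was lower at 5318 ± 449 and 6729 ± 394 CPM (log2 fold change -0.34, adjusted p = 0.00786). Fcer2a, the low-affinity IgE receptor gene of lymphocytes, was lower too, at 0.63 ± 0.43 CPM in knockout and 2.12 ± 0.29 CPM in wild type lungs (adjusted p = 0.00289). Of 6 cytosolic RNA and DNA sensing genes, Ddx58 (RIG-I) was higher (adjusted p = 0.0373) and Zbp1 lower (adjusted p = 0.0184). The first call was lost in 9 of 19 alternatives (up to 0.108) and the second without wild type replicate 1 or 2 (0.0548 and 0.0529).

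Markers of the cells that carry these receptors were called at shares of 33.3% (alveolar macrophage), 23.1% (monocyte and interstitial macrophage), 28.6% (dendritic cell), 0% (neutrophil), 44.4% (B cell), 20% (T and NK cell), 30% (endothelium), 60% (lymphatic endothelium) and 40% (epithelium), beside 30.9% of all genes. Their median log2 fold changes were 0.16, 0.20, -0.25, -0.09, -0.82, -0.22, 0.10, -0.11 and 0.07 in the same order. Of 14 alveolar macrophage markers 9 were tested and 3 were higher in knockout lungs, and their summed level was 455 to 507 CPM in knockout and 380 to 415 CPM in wild type lungs. Marco, a scavenger receptor gene, was at 53.9 ± 6.52 CPM in knockout and 36.5 ± 1.99 CPM in wild type lungs (log2 fold change 0.55, adjusted p = 0.00133), Ear2 at 165 ± 8.44 and 119 ± 12 CPM, and Abcg1 at 54.2 ± 3.61 and 35.9 ± 3.77 CPM. The 6 others tested were not called. Among them Pparg (log2 fold change -0.04), Car4 (-0.01) and Atp6v0d2 (-0.06) were slightly lower. Fabp4 (0.10), Itgax (0.16) and Mrc1 (0.27) were higher. Car4, an abundant marker of this list, was at 131 ± 7.93 and 131 ± 3.72 CPM. Of 13 monocyte and interstitial macrophage markers 3 were higher, with Csf1r at 42.1 ± 2.55 CPM in knockout and 33.4 ± 1.91 CPM in wild type lungs (adjusted p = 0.00582) and C1qc at 84.6 ± 6.69 and 66.1 ± 6.32 CPM (adjusted p = 0.00850). The 10 others tested were not called in limma. Ly6c2 (log2 fold change -0.45), Ccr2 (-0.26) and Apoe (-0.20) were on the lower side. Cx3cr1 (0.21), C1qa (0.16), C1qb (0.22), Nr4a1 (0.20), Ace (0.22), Cd68 (0.06) and Treml4 (0.01) were on the higher side. In limma and edgeR 0 of this list were called lower (2 each at an unadjusted p under 0.05), and in DESeq2 2 were called lower. The summed level of this list overlapped, at 2306 to 2728 CPM in knockout and 2441 to 2758 CPM in wild type lungs. Apoe (1234 ± 108 CPM in knockout and 1413 ± 122 CPM in wild type lungs) and Ace (932 ± 111 and 797 ± 50.6 CPM) made up most of that sum, in opposite directions. It therefore says little about the other markers.

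Of 7 dendritic cell markers tested 2 were lower, Bst2 at 105 ± 10.1 CPM in knockout and 134 ± 5.13 CPM in wild type lungs (adjusted p = 0.00435) and Ccr7 at 4.26 ± 1.1 and 7.36 ± 0.99 CPM (adjusted p = 0.00659). Summed levels were 146 to 179 CPM in knockout and 194 to 212 CPM in wild type lungs, and Bst2 made up most of them. The 5 others tested were not called: Batf3 was higher (log2 fold change 0.33), and Zbtb46 (-0.23), Cd209a (-0.19), Irf8 (-0.25) and Siglech (-0.26) were lower. The 7 neutrophil markers tested had no call in limma (2 lower at an unadjusted p under 0.05, and 1 lower in each of edgeR and DESeq2), and their sums overlapped at 220 to 431 CPM in knockout and 255 to 385 CPM in wild type lungs. Of 9 B cell markers 4 were lower, with summed levels of 41.0 to 140 CPM in knockout and 106 to 162 CPM in wild type lungs. Of 10 T and NK cell markers 2 were lower (64.2 to 92.5 CPM in knockout and 86.1 to 101 CPM in wild type lungs), and of 10 endothelial markers 3 were higher and 0 lower in limma, 3 higher and 2 lower in edgeR and 4 higher and 2 lower in DESeq2 (1942 to 2170 CPM in knockout and 1879 to 2058 CPM in wild type lungs). The 5 lymphatic endothelial markers tested had 1 higher (Ccl21a, log2 fold change 0.67) and 2 lower (Pdpn, -0.83, and Lyve1, -0.50). Flt4 (0.10) and Mmrn1 (-0.11) were not called. The summed level of this list was 219 to 288 CPM in knockout and 345 to 406 CPM in wild type lungs. Pdpn, which alveolar type 1 cells carry too, and Lyve1 made up most of that sum. The 10 epithelial markers had 2 higher and 2 lower. No macrophage, neutrophil or dendritic cell marker that has a row was at 0 in any library, and markers without a row were not analysed here. Some markers are shared between cell types, and the part of cell composition in the receptor differences was not tested.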

How the data were processed

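Total RNA of whole lung from 4 n/i/eNOSs-/- and 4 wild type mice was profiled by CAGE. Per the labels' protocols, RNA had integrity numbers above 7.0 and the 8 barcoded libraries were sequenced together as 75-nt single reads. Per the submitters' processing notes, the genome build was mm9 and the tools included HISAT2 2.0.5, BWA 0.7.12-r1039 and edgeR, with no role or order. The assignment of tags to genes, its annotation and any use of strand were not given in the sources used.

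The authors deposited CPM with 2 decimals for 15728 genes. Values proved to be whole multiples of the CPM of 1 read (100% within 0.1 reads), which gave back reads and totals (13014134 to 18593913). A floor of 3 reads equals 0.161 to 0.231 CPM and covers counting error only. Values are not corrected for composition, so a share lost by an abundant gene is gained by others.

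The limma 3.58.1 package (R 4.3.3) was run with a variance trend and genotype as its single term on log2(CPM + 0.5) of the 14065 genes that reached 1 CPM in 4 or more libraries, a scale that understates fold changes of low genes. Adjusted p are two-sided Benjamini-Hochberg values over these 14065 genes, called under 0.05. The test was also run on simulated reads with an assumed spread and far fewer changed genes than were called here, so that run does not measure error in these data. Alternatives were pseudocounts of 0.1 and 1, other filters, TMM, median-ratio and quantile scaling, edgeR 4.0.16 and DESeq2 1.42.0 on the recovered reads, a replicate block and each library left out. Within-library differences of 3 receptor pairs were compared by two-sided exact permutation tests. Pairs of replicates had a chi-square of 11.64 to 19.77 for the average gene, above counting noise.

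The receptors and the lists of partner and marker genes were chosen with earlier results of these data known. Per-library values are given for every called receptor and the most abundant of each class, and of each list up to 4 called genes with the smallest adjusted p are named, apart from some that are not reported here. Values of Tlr3, Tlr1, Nod2, Nlrp1a, Clec12a, Clec11a and Clec2i by library, and Pf4, Ppbp, Gp1bb and Pdpn, were picked after their values were seen. Markers tested without a call are all named too for platelets, alveolar macrophages, monocytes and interstitial macrophages, dendritic cells and lymphatic endothelium. Overlapping genes and near copies of at least 97% identity over 75 nt were taken from GENCODE M21 (blastn 2.17.0 on the first 200 bases), and promoter windows from RefSeq (GRCm38.p6). The deposited table has no coordinates.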

Additional observations from a re-analysis of the deposited data

Results flagged for a closer look

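Among 58 sets of 4 libraries (29 receptor genes in each genotype), 2 had a library far from the other 3 by Dixon's criterion, and chance gives about 1 in 20 such sets. Both were in knockout replicate 2. Clec4a2 was at 6.22 CPM there, against 8.81 to 9.45 CPM in the other knockout libraries (ratio 0.831). Clec5a was at 1.15 CPM there, against 2.0 to 2.19 CPM in the other knockout libraries (ratio 0.850). Without this library the log2 fold changes (knockout over wild type) were 0.086 for Clec4a2 (adjusted p = 0.576) and 0.092 for Clec5a (adjusted p = 0.713), in place of -0.041 and -0.070.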

How the results depend on the processing

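Of 540 results for single receptor genes under an alternative, 494 kept their direction and their side of the threshold, 24 lost a call, 10 gained one and 12 changed sign, all 12 in genes without a call. The number of receptors called higher was 4 to 6 under every alternative. The number called lower was 2 to 4 under alternatives that kept all libraries and 0 to 3 with each library left out. Over all genes, 1741 to 2387 were higher and 1552 to 2379 lower, with 2247 and 2326 in edgeR and 2189 and 2266 in DESeq2. Tlr2, Tlr8, Nod1 and Clec16a kept their call wherever they were tested. Under quantile normalization the log2 fold change was -0.023 for Clec2d, 0.0068 for Nlrx1, -0.027 for Clec1a and -0.016 for Clec14a. With each library left out it was -0.16 to 0.092 for Clec5a, -0.10 to 0.086 for Clec4a2, -0.10 to 0.094 for Nlrx1, -0.00039 to 0.080 for Clec1a and -0.025 to 0.11 for Clec14a, and the Nod1 minus Nod2 difference was -0.011 to 0.41. The cause was not tested.

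Over all tested genes, same-numbered libraries of the genotypes deviated together with correlations of 0.043, 0.026, -0.003 and 0.065. Libraries of unlike number had -0.13 to 0.12. These values show no pairing over the whole table but do not test one in some genes. Nr4a1, for example, was highest in replicate 1 of both genotypes (30.9 CPM in knockout and 25.9 CPM in wild type lungs). With a replicate block 6 receptors were higher and 3 lower: Tlr3 (adjusted p = 0.0439) and Clec2i (0.0242) gained a call and Tlr12 (0.0920) lost it. Of 1337 results for 71 called genes of the partner and marker lists, 1232 kept their call and 105 lost it. Depth limits the receptors near 1 CPM, where a library holds few reads.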
